A study of Mus musculus with 6 samples.

Results

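Injured and sham-operated mouse kidneys were compared over both genotypes of the study, with every array assigned by its surgery label. All 6 of the 6 arrays entered: 3 from kidneys after ischemia/reperfusion injury and 3 from kidneys after sham surgery. Of the injured kidneys 2 were wild type and 1 carried the label Gpr97 deficiency, and the sham kidneys were divided in the same way. All 6 are labelled as kidney tissue of male mice. Gpr97 is the older symbol of Adgrg3, an adhesion receptor found on granulocytes. No agent besides the surgery is named for any group. For strain, age, extent of the Gpr97 deletion, duration of ischemia and interval before collection no value was found in the labels. Whether arrays of a group came from separate animals is not stated either, so a p-value here reflects only how far these samples spread, which may be technical in part.

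In renal ischemia/reperfusion, blood flow to the organ is stopped for a time and then restored. The proximal tubule, which reabsorbs most of the filtered sodium, phosphate, glucose and amino acids at a high cost in oxygen, is the segment known to suffer most. Surviving tubule cells lose features of their transport function for a time, switch on genes of injured and regenerating epithelium, and release signals that draw leukocytes.

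Signal was the log2 of each probe's processed intensity minus the 75th percentile of its array, so a difference of 1 is a factor of 2. The arrays lay on 2 slides, slide 1 with wild-type arrays only and slide 2 with arrays of both genotypes. Each injured array shared its slide with a sham array of the same genotype. The arrays therefore form 3 pairs that share no array. The slide 1 wild-type pair is injured array 2 against sham array 1, the slide 2 wild-type pair is injured array 1 against sham array 2, and the Gpr97-deficient pair on slide 2 is its single injured against its single sham array. Signals and differences are given in that pair order throughout, and where a gene was not well above background on an array they are as measured and serve as a description. The change over all 6 arrays is the coefficient of surgery in a limma model with genotype as a term. It is given with its standard error (SE) and a p-value adjusted by Benjamini-Hochberg over 19634 genes. That model has no slide term, and both Gpr97-deficient arrays lay on slide 2, so genotype and slide are partly confounded.

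Each array carried 41174 probes, and 63.0% to 71.1% of these exceeded the scanner software's background limit (termed well above background); saturation was reached by 0 spots. Of the kidney marker lists, 49 of 49 proximal tubule, 25 of 25 collecting duct and 21 of 21 podocyte genes tested were well above background on all 6 arrays. Adgrg3 stood at 0.20, 0.02 and -5.38 on the sham arrays and at 1.18, 1.06 and -5.75 on the injured arrays. Both Gpr97-deficient arrays lay far below the 4 wild-type arrays, as their labels say, and the injured minus sham differences of Adgrg3 were 0.99, 1.03 and -0.37. One array went against its labelled sex. On wild-type injured array 1 Xist, which shuts down 1 X chromosome in cells of females, was at 4.05, and it reached at most -5.45 on the other arrays. The Y-linked genes Ddx3y, Eif2s3y, Kdm5d and Uty were not well above background on that array and were so on the other 5. Values without that array are given beside many results, but not beside all that move with it. Without that array the change of Ccl8, for example, was -1.48 beside -0.81, and that of Cyp2j13 -1.5 beside -3.63.

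At the level of single genes, limma called 0 of 19634 genes (0%) at an adjusted p under 0.05. At an unadjusted p under 0.05, 1091 genes (5.56%) were higher and 1317 (6.71%) lower after injury. Counted without a test, 228 genes (1.16%) were at least 2-fold higher and 152 (0.774%) at least 2-fold lower in all 3 pairs. A further 14779 genes (75.3%) differed by less than 2-fold in every pair. In single pairs 1206, 1152 and 895 genes were at least 2-fold higher, and 1912, 910 and 1048 at least 2-fold lower. Arrays of the same group, which lay on different slides, also differed widely. Over 2-fold apart were 2894 of 19634 genes between the 2 wild-type sham arrays and 3428 between the 2 wild-type injured arrays. Differences over 2-fold were thus also common inside a group. These counts do not bound the size of a difference, and the injured arrays compared include the one with Xist. Over all 19634 genes, which share an array and are not independent replicates, the differences of the slide 1 wild-type pair correlated with those of the Gpr97-deficient pair at Pearson's r = 0.46 and with those of the slide 2 wild-type pair at r = 0.32. The slide 2 wild-type and Gpr97-deficient pairs gave r = 0.29. Without the slide 2 wild-type pair, which holds the array with Xist, 413 genes (2.10%) were at least 2-fold higher and 543 (2.77%) at least 2-fold lower in both other pairs. A test of whether the injury change differed between the genotypes called 0 genes (0%), with 292 (1.49%) at an unadjusted p under 0.05. That test rests on 1 Gpr97-deficient array per surgery, taken to have the same variance as wild-type arrays.

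**Figure D1:**
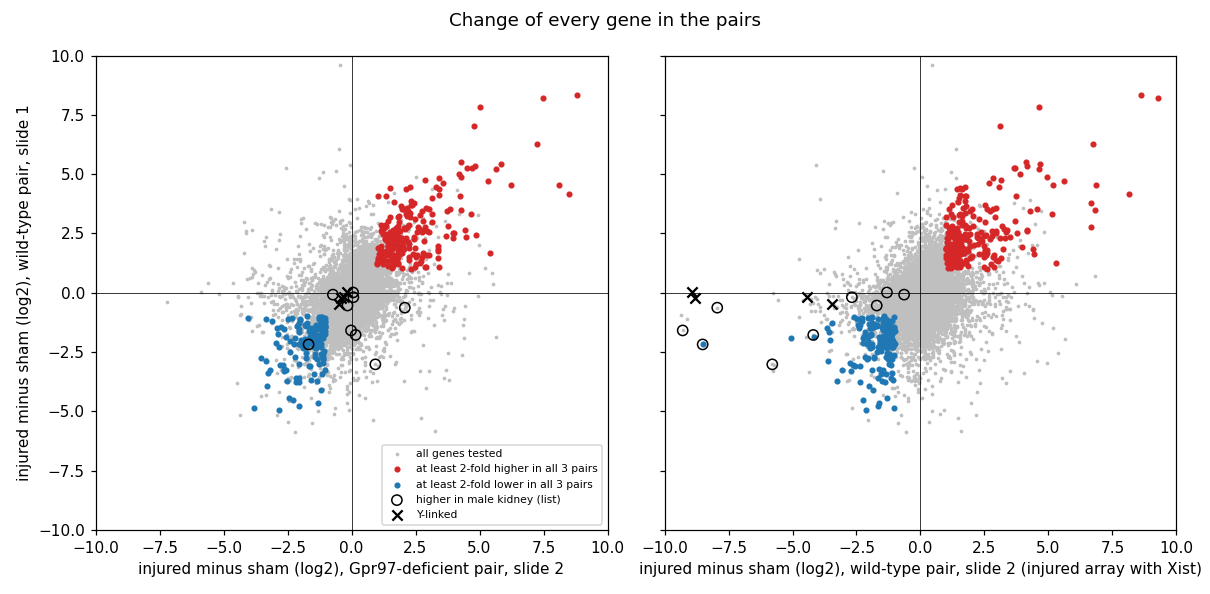
Injured minus sham difference (log2) of every gene in the slide 1 wild-type pair (vertical axis) against the Gpr97-deficient pair (left) and the slide 2 wild-type pair (right). Red points mark the 228 genes at least 2-fold higher and blue points the 152 at least 2-fold lower in all 3 pairs. Several open circles (genes higher in male than female kidney) and the crosses (Y-linked genes) fall far to the left only in the right panel, whose injured array carries Xist. Other circles, such as Odc1 at -0.64, do not.

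The members of all gene lists were chosen with earlier results of these data known, so list counts beside shares of all genes are descriptions. Lists also share members, such as Timp1, Tnc, Il6 and Atf3, and are not independent. For counts of members higher or lower over the 6 arrays, no share of all genes was taken. Genes of injured tubular epithelium were the list most often higher. Of 30 such genes tested, 30 were higher after injury over the 6 arrays, 25 had all 3 injured above all 3 sham arrays (9.67% of all genes did), and 18 were at least 2-fold higher in all 3 pairs (1.16% of all genes). The median change of the list was 1.91, beside -0.06 over all genes tested (0.19 with normexp background correction, a shift to be set against the small list medians below), and it was 2.55, 1.54 and 1.66 in the 3 pairs and 2.31 without the array with Xist. Because whole kidney was measured, more cells that express a gene and more RNA per cell cannot be told apart, and likewise for genes that were lower.

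Sprr2f, a small proline-rich protein of the cornified envelope of stressed epithelia, had the smallest p of the higher genes. Its signal was -6.41, -7.82 and -7.77 on the sham arrays, not well above background on any of them, and 1.91, 0.81 and 1.02 on the injured arrays. All 3 injured arrays thus lay far above all sham arrays. With sham signals raised to their array's lowest signal well above background where below it, Sprr2f was 379-fold higher after injury (limma adjusted p 0.140). This fold depends on the processing, and the lowest change over the alternative analyses was 4.26. Sprr2f shared the smallest adjusted p with Mmp7. It passed in 4 alternative analyses, among them the limma fit with the pair as a block (adjusted p 0.00961). The probe lies on chromosome 3, 92170259 to 92170318 in mm9.

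Krt20, a keratin of urothelium and intestinal epithelium, was measured on every array. It stood at -2.63, -4.99 and -3.07 in sham and at 5.59, 4.27 and 4.39 in injured kidneys, a change of 8.31 (SE 0.76, limma adjusted p 0.237). All 3 injured arrays lay above all sham arrays, and the pair differences were 8.21, 9.26 and 7.46. Lcn2, the iron-carrier binding lipocalin used as a urinary marker of kidney injury, stood at 0.84, -3.52 and -0.71 in sham and at 5.39, 3.36 and 5.52 in injured kidneys. Its groups did not overlap, but the sham values spread widely (SD 2.21, n = 3), and the change of 5.88 had an SE of 1.25 (limma adjusted p 0.270).

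Sox9, a transcription factor of regenerating tubule cells, stood at -4.21, -4.72 and -3.40 in sham and at 0.41, -2.05 and 0.18 in injured kidneys. Its change was 3.62 (SE 0.66), and 4.32 without the array with Xist, on which the injured signal was lowest. Within the same list Sprr1a, Myc and Plaur, the urokinase receptor, had changes of 4.30 (SE 1.33), 2.33 (SE 0.47) and 2.41. The 1 gene of the 30 whose pairs disagreed in direction was Krt7, at 0.25, 0.63 and -0.09. Havcr1, which encodes kidney injury molecule 1 and is singled out here after its values were seen, differed by 3.43, 0.27 and 2.73. It was thus at least 2-fold higher in the pairs without the array with Xist and near its sham level in the pair with it. That holds for the brighter of its 2 probes, whose change was 2.14, and the change at the other probe was 7.01.

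**Figure D2:**
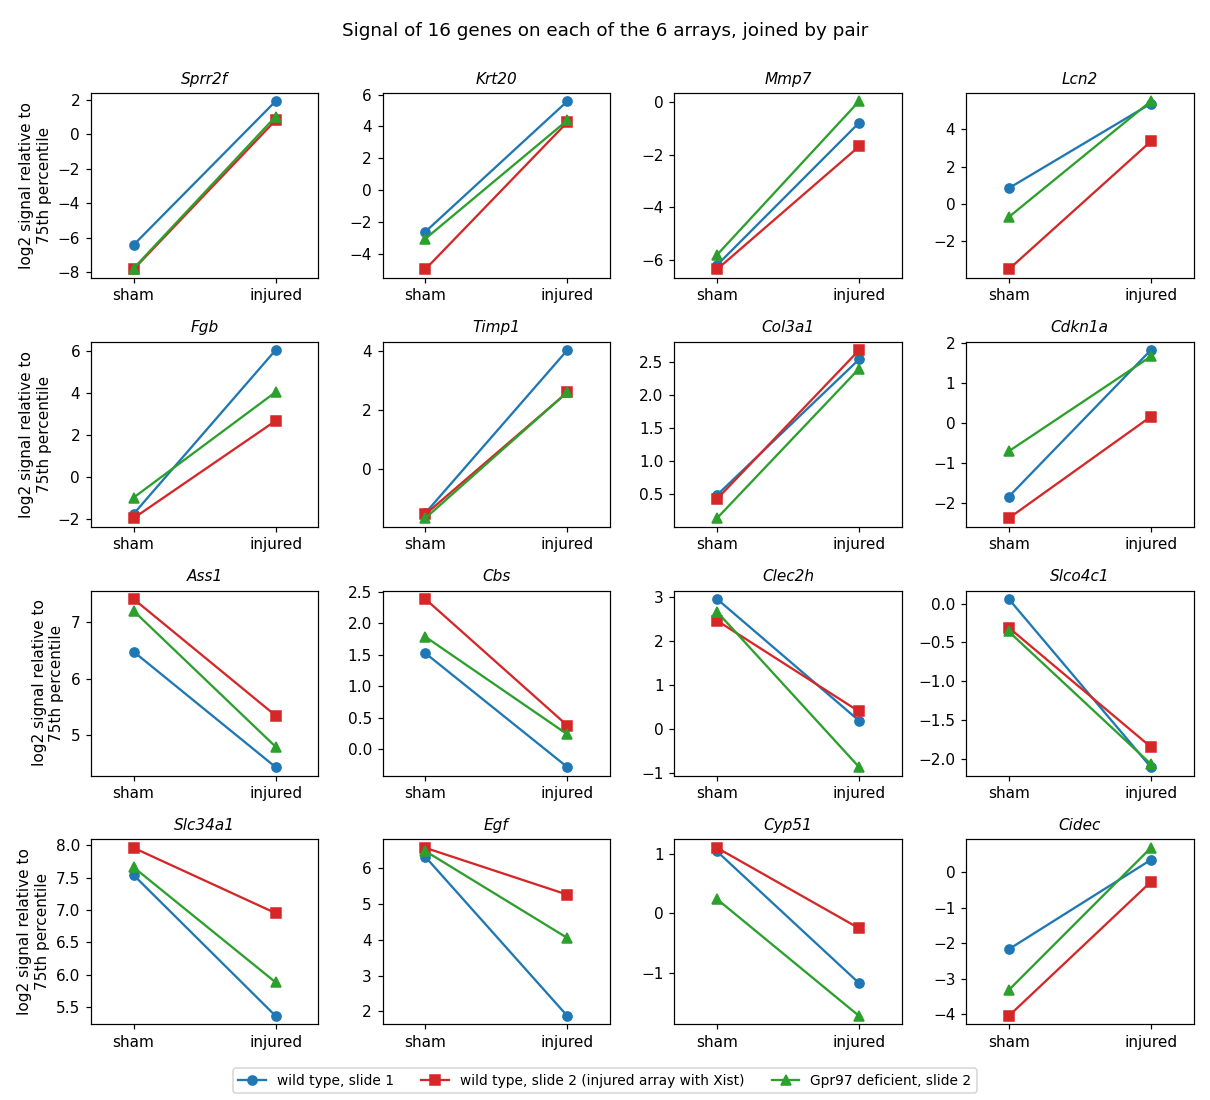
Log2 signal minus its array's 75th percentile (vertical axes, each with its own range) of 16 genes on the 6 arrays, with each sham array joined to the injured array of the same genotype and slide. The lines go up from sham to injured for the 8 genes of the upper rows and for Cidec, and down for the other 7, with Sprr2f going from at most -6.41 to at least 0.81.

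Acute phase genes formed the second group. These encode plasma proteins made mainly by the liver in inflammation, and several are also made by injured tubule cells. Of 18 tested, 15 were higher after injury and 9 were at least 2-fold higher in all 3 pairs (1.16% of all genes). The median was 2.08 (1.59, 2.44 and 1.72 by pair, 2.20 without the array with Xist). The 3 lower members, Itih4, Serpina3g and Hpx, had changes of -0.32, -0.07 and -0.06.

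The 3 fibrinogen chains, which assemble into the clotting protein and lie next to each other on chromosome 3, were all far higher. Fgb stood at -1.77, -1.97 and -0.99 in sham and at 6.04, 2.67 and 4.04 in injured kidneys, with pair differences of 7.81, 4.64 and 5.03. Fgg stood at 2.11, 1.32 and 2.17 in sham and at 7.46, 5.48 and 7.0 in injured kidneys, a change of 4.78 (SE 0.57, limma adjusted p 0.260). Fga had a change of 4.54 (SE 0.61). For all 3 chains the injured and sham arrays did not overlap, and the injured array with Xist was the lowest of the 3 injured arrays.

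Among the serum amyloid A genes the slide 1 injured array was the lowest of the 3. Saa2 stood at -3.25, -5.87 and -5.98 in sham, well above background on 1 of these arrays, and at 0.91, 2.28 and 2.52 in injured kidneys. Its pair differences were 4.16, 8.15 and 8.50, with the slide 1 wild-type pair lowest. Saa1 followed the same order with 1.47, 3.14 and 3.37 at its brighter probe (change 2.66), beside a change of 6.88 at its other probe. Saa3 differed by 2.76, 6.65 and 2.87. C3, the central complement component, stood at 4.10, 2.36 and 4.31 in sham and within 6.01 to 6.33 on the 3 injured arrays. Lrg1, a leucine-rich glycoprotein of the acute phase, differed by 4.06, 3.72 and 4.22, a change of 4.0 (SE 0.34, limma adjusted p 0.237). The cytokine Il6, which drives hepatic acute phase genes, differed by 3.85, 1.75 and 2.32, but it was well above background on 1 sham and 2 injured arrays only.

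Among chemokines and cytokines, 20 of 25 genes were higher and 9 were at least 2-fold higher in all 3 pairs (1.16% of all genes). The median was 1.09 (1.53, 0.88 and 1.02 by pair, 1.1 without the array with Xist). The 9 included 5 chemokines besides Il6, Il11, Il1rn and Ccl20, namely Cxcl1, Cxcl2, Cxcl5, Ccl2 and Ccl7. Cxcl1, a chemokine that draws neutrophils, stood at -2.69, -4.0 and -3.88 in sham and at 2.58, -0.33 and 0.63 in injured kidneys. Il1rn, the natural antagonist of the interleukin-1 receptor, was not well above background on any sham array. It stood at -1.37, -2.72 and -3.17 after injury, 26.0-fold higher as measured. Ccl20, which draws lymphocytes and dendritic cells through CCR6, was likewise undetected in sham and was 20.4-fold higher as measured. The lowest changes of Il1rn and Ccl20 over the alternative analyses were 1.47 and 1.45. The 5 members on the other side were Ccl3, Ccl5, Ccl8, Il18 and Tslp, with changes of -0.03, 0.00, -0.81, -0.50 and -0.30.

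Immediate early genes, the transcription factors that cells make within minutes of a stimulus, were higher too. Of 20 tested, 19 were higher and 7 were at least 2-fold higher in all 3 pairs (1.16% of all genes). The 7 were Fos, Fosl1, Junb, Egr1, Egr2, Atf3 and Maff. The median of the list was 1.15 (1.69, 0.86 and 1.13 by pair, 1.51 without the array with Xist). Fosl1, a partner of Jun in the AP-1 factor, stood at -4.33, -5.14 and -5.20 in sham and at 0.51, -2.29 and -1.77 in injured kidneys. Egr2 stood at -2.89, -4.60 and -4.61 in sham and at 0.65, -2.0 and -0.76 in injured kidneys. For both genes the slide 1 injured array was the highest. Fos differed by 1.79, 2.54 and 1.92, but its sham and injured arrays overlapped across slides (change 2.08, SE 0.97). The 1 lower member was Dusp1, a phosphatase that switches off MAP kinases, at -0.39.

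The promoters of the genes that were higher in all 3 pairs were searched for the letters that AP-1 binds, because AP-1 genes were among them. The window was the 250 bases before the first listed start of each gene in the RefSeq promoters (GRCm38.p6), read on both strands. The AP-1 letters TGANTCA occurred in 19 of 156 promoters of genes higher in all 3 pairs (12.2%), in 5 of 104 promoters of genes lower in all 3 pairs (4.81%) and in 4.74% of the 12430 promoters of all genes tested. A match is a description of the sequence and shows no binding. 4 of the genes with a match are printed, 5′ to 3′ on the strand of the gene with the AP-1 letters in capitals: Sprr2f (chr3:92364960-92365026, plus strand), Mmp7 (chr9:7691997-7692063, plus strand), Fgb (chr3:83050000-83050066, minus strand) and Il1rn (chr2:24336689-24336755, plus strand).
Sprr2f: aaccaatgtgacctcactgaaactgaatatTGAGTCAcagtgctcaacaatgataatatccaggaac
Mmp7: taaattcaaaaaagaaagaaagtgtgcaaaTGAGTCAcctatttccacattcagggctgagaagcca
Fgb: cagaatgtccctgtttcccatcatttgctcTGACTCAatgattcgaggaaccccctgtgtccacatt
Il1rn: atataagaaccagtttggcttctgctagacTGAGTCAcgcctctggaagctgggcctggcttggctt

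Counted from the start, the first capital lies at position -197 in Sprr2f, -63 in Mmp7, -173 in Fgb and -141 in Il1rn. Other motifs were nearer to the share of all promoters. The STAT letters TTCCNGGAA occurred in 0.641% of the promoters of higher genes and 0.973% of all, and the antioxidant response letters TGACNNNGC in 13.5% and 11.7%. The letters GTTAAT, 1 arm of the site of hepatocyte nuclear factor 1, a factor of the proximal tubule, occurred in 10 of 104 promoters of genes lower in all 3 pairs (9.62%), in 6.41% of promoters of higher genes and in 4.71% of all. Slc34a1 and Akr1c21, both lower after injury, hold such letters close to the start, in chr13:55399557-55399622 and chr13:4573993-4574058 (plus strand), with the matches in capitals.
Slc34a1: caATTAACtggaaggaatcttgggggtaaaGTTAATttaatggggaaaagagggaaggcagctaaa
Akr1c21: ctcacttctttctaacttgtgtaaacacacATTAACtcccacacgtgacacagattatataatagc

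Matrix genes and the proteases that cut the matrix were higher with them. Of 26 matrix genes 23 were higher and 19 had all injured above all sham arrays (9.67% of all genes did), with a median of 0.96 (0.92, 0.87 and 1.3 by pair, 1.09 without the array with Xist). The 5 that were at least 2-fold higher in all 3 pairs were the collagen chains Col1a1, Col3a1, Col4a1 and Col5a1 and tenascin C, Tnc. The probes of Col5a1 disagreed, with changes of 0.53 and 1.55. Col3a1, a fibrillar collagen of scar and vessel wall, stood at 0.49, 0.43 and 0.14 in sham and at 2.54, 2.68 and 2.40 in injured kidneys. Its change of 2.19 had an SE of 0.15 (limma adjusted p 0.156), and 2.16 remained without the array with Xist. The 3 lower matrix genes were Col5a2, Dcn and Lum, at -0.16, -0.58 and -0.28.

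Mmp7, the metalloproteinase matrilysin, stood at -6.20, -6.36 and -5.81 on the sham arrays, not well above background, and at -0.78, -1.68 and 0.04 on the injured arrays. As measured Mmp7 was 39.8-fold higher (limma adjusted p 0.140), and its lowest change over the alternative analyses was 2.43. Timp1, an inhibitor of metalloproteinases, lay within -1.67 to -1.5 on the sham arrays and at 4.02, 2.59 and 2.60 on the injured arrays, a change of 4.64 (SE 0.41, limma adjusted p 0.237). Mmp3, stromelysin, was undetected in sham and 8.76-fold higher as measured, with a lowest change of 1.6 over the alternative analyses. In all 16 of 22 genes of this list were higher, 6 at least 2-fold in all 3 pairs (1.16% of all genes). The median was 1.13 (1.19, 1.03 and 0.49 by pair, 0.88 without the array with Xist).

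Cytoskeletal genes showed a smaller but broad difference. Of 30 tested, 28 were higher and 26 were higher in all 3 pairs (18.6% of all genes were), with a median of 0.74 (1.11, 0.46 and 0.59 by pair, 0.86 without the array with Xist). Actn1, an actin crosslinker, and Tmsb10, which binds free actin, differed by 1.51, 1.42 and 1.21 and by 1.54, 1.47 and 1.66. The 2 exceptions were Actb and Myl9, at -0.01 and -0.07. Among growth factors Inhba, a subunit of activin A, differed by 3.24, 1.61 and 1.84. Grp, gastrin-releasing peptide, was undetected in sham and 61.2-fold higher after injury, with dim sham signals raised as for Sprr2f. Its lowest change over the alternative analyses was 2.51.

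**Figure D3:**
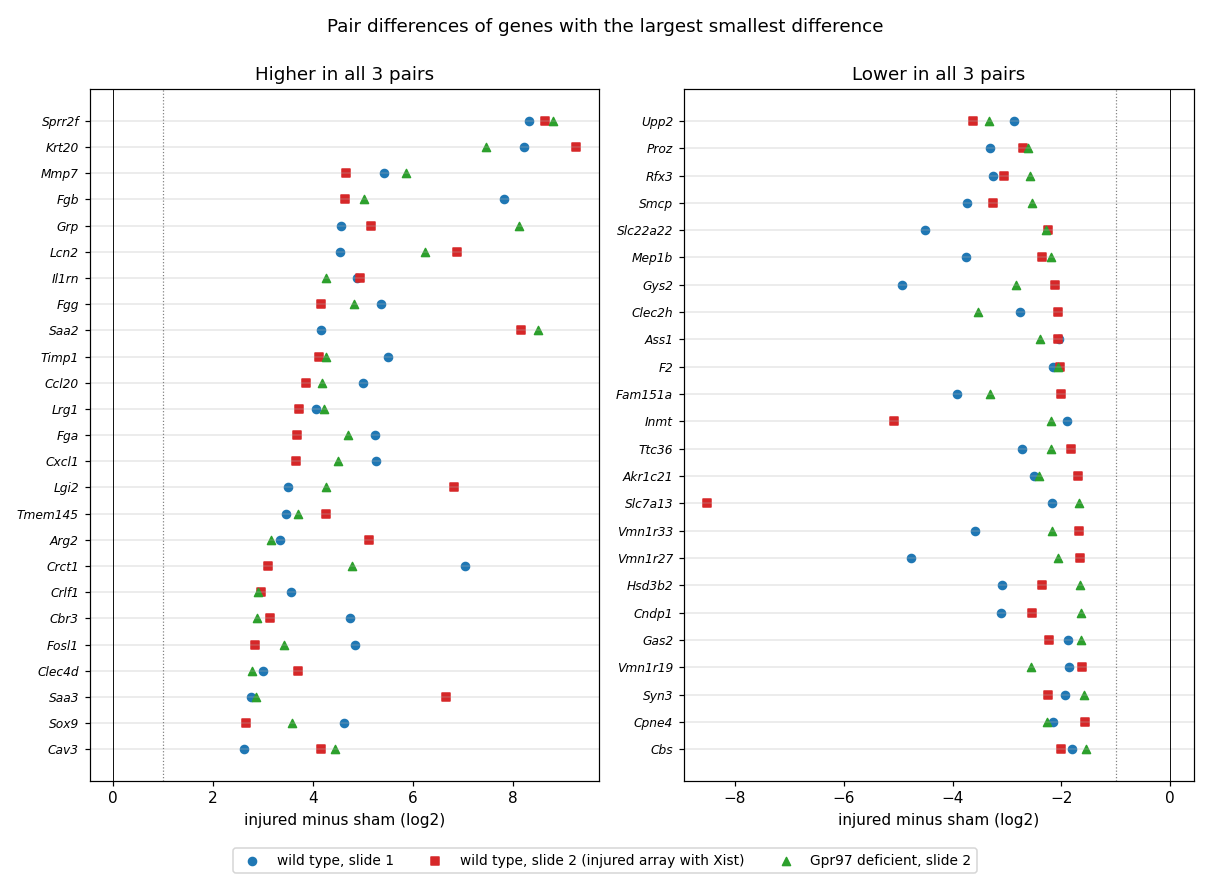
Injured minus sham difference (log2, horizontal axis) in each of the 3 pairs for the 25 genes higher (left) and 24 genes lower (right) among those with the largest smallest difference in all 3 pairs; dotted lines mark 2-fold. Most genes lie within 3 units over the pairs, while Slc7a13 and Inmt lie far lower in the slide 2 wild-type pair, at -8.51 and -5.07.

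Genes of the proximal tubule were lower after injury. Of 49 tested, 43 were lower over the 6 arrays, 32 were lower in all 3 pairs (26.4% of all genes were) and 27 had all injured below all sham arrays (13% of all genes did). The median was -0.81, and -0.85, -0.67 and -0.65 by pair. It was -0.87 without the array with Xist. The genes at least 2-fold lower in all 3 pairs (0.774% of all genes) were 4 transporters.

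Slc34a1, the main sodium phosphate cotransporter of the brush border, stood at 7.54, 7.96 and 7.66 in sham and at 5.36, 6.95 and 5.88 in injured kidneys. Slc34a3, its relative, stood at 4.34, 4.82 and 4.78 in sham and at 0.96, 3.71 and 1.52 in injured kidneys. In both genes the sham arrays lay close together and the injured array with Xist was the one nearest to them. Without that array their changes were -2.12 and -3.47, beside -1.65 (SE 0.45) and -2.58 (SE 0.76) with it. Slc6a19, the transporter of neutral amino acids, had a change of -1.64 (SE 0.34, limma adjusted p 0.264). The fourth, Slc7a13, an aspartate and glutamate transporter, differed by -2.18, -8.51 and -1.68. Its large difference in the slide 2 wild-type pair came with the array with Xist, and without that array its change was -2.41, beside -4.12 (SE 1.51).

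The 6 proximal tubule genes on the other side were Slc5a1, Slc22a6, Slc6a18, Slc13a1, Cyp4a10 and Cyp4a14. Of these Slc13a1, the sulfate transporter, was higher in all 3 pairs, by 1.54, 0.78 and 1.24. Cyp4a14, a fatty acid hydroxylase on the list of genes higher in female kidney, differed by -0.49, 4.08 and 0.50. Slco4c1, an organic anion transporter of the basolateral membrane that was not on the list, was the gene with a symbol whose lower signal was largest beside its error. It stood at 0.06, -0.31 and -0.36 in sham and at -2.11, -1.85 and -2.07 in injured kidneys, a change of -1.81 (SE 0.18, limma adjusted p 0.237).

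Several of the lower genes named encode enzymes of amino acid metabolism, which were no list of their own. Ass1, which joins citrulline and aspartate in renal arginine synthesis, stood at 6.48, 7.41 and 7.20 in sham and at 4.44, 5.35 and 4.80 in injured kidneys, with pair differences of -2.04, -2.06 and -2.40. For this gene every injured array lay below every sham array. Cbs, cystathionine beta-synthase, had a change of -1.79 (SE 0.32, limma adjusted p 0.263). Asl, which completes arginine synthesis after Ass1, was lower by 1.74, 1.12 and 1.04 in the pairs. Further enzymes of amino acid breakdown, chosen with Asl after their values were seen, were Ivd for leucine, Ftcd and Amdhd1 for histidine and Agxt2, with changes of -1.26, -1.92, -1.84 and -1.15. Arg2, the mitochondrial arginase that degrades arginine, lay on the other side, at -0.86, -2.81 and -0.62 in sham and within 2.31 to 2.54 on the injured arrays.

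Further genes of varied function were at least 2-fold lower in all 3 pairs. Mep1b, a metalloprotease subunit of the brush border, had a change of -2.77 (SE 0.64) and Gys2, a glycogen synthase, -3.29 (SE 0.80). Upp2, which splits uridine, had a change of -3.28 (SE 0.57). Upp2 was well above background on 1 of the 3 injured arrays, and its smallest change over the alternative analyses was -0.41. The steroid enzymes Hsd3b2 and Akr1c21 had changes of -2.37 (SE 0.37) and -2.21 (SE 0.43). Proz, the vitamin K dependent protein Z, stood at 0.90, 1.81 and 1.16 in sham and at -2.42, -0.89 and -1.46 in injured kidneys. Clec2h, a lectin-like receptor, stood at 2.95, 2.46 and 2.66 in sham and at 0.19, 0.40 and -0.86 in injured kidneys (change -2.78, SE 0.31, limma adjusted p 0.260). Inmt, a methyltransferase, differed by -1.90, -5.07 and -2.20, and by -2.71 over the arrays without the one with Xist. Kl, which encodes the phosphate-regulating protein Klotho and was picked after its values were seen, differed by -1.57, -1.32 and -1.58.

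The other nephron segments differed less evenly. Thick limb and distal tubule genes were lower in 24 of 27 cases, and 14 were lower in all 3 pairs (26.4% of all genes). Their median was -0.57, but the medians by pair were -1.05, -0.06 and -0.73. The list was at -0.92 without the array with Xist. Egf, made in the thick limb and distal convoluted tubule, was the 1 member at least 2-fold lower in all 3 pairs, at 6.32, 6.57 and 6.48 in sham and 1.87, 5.26 and 4.05 in injured kidneys. Its sham arrays lay close together and its injured arrays spread widely, the one with Xist nearest to sham. The 3 members on the other side were Umod, Cldn14 and Stk39, and Umod, uromodulin, differed by only -0.16, 0.42 and 0.12. Collecting duct genes had a median of -0.17, which turned to 0.05 without wild-type injured array 2 and was -0.49 without the array with Xist. Podocyte genes had a median of -0.03, and at least 2-fold differences in all 3 pairs were seen in 0 of these 21 and 0 of the 25 collecting duct genes.

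Mitochondrial genes, those of the TCA cycle and of oxidative phosphorylation, showed a small shift in 1 direction. All 32 tested were lower over the 6 arrays, 25 in all 3 pairs (26.4% of all genes), with changes between -0.93 and -0.14 and a median of -0.42 (-0.52, -0.14 and -0.60 by pair, -0.59 without the array with Xist). None reached 2-fold in all 3 pairs. Ndufs1, a core subunit of complex I, differed by -0.78, -0.45 and -1.04, and Suclg2, a succinyl-CoA ligase subunit, by -0.35, -0.34 and -0.35. Genes of fatty acid oxidation and peroxisomes had a median of -0.10, which was above 0 in 6 of 15 alternative analyses. Cidec, a protein of the lipid droplet surface, was higher, by 2.52, 3.78 and 4.01, while Lpl, lipoprotein lipase, was lower by 1.36, 2.35 and 1.40. The adipocyte list that holds Cidec and Lpl had a median of 0.10, which turned below 0 in 4 alternative analyses.

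Genes of cholesterol synthesis were lower in 22 of 22 cases over the 6 arrays, but 7 were lower in all 3 pairs (26.4% of all genes were). The median was -0.53, and the pairs gave -0.79, 0.19 and -1.13. The pair with the array that carries Xist thus lay on the other side, and the median was -0.80 without that array. Cyp51, the lanosterol demethylase, stood at 1.04, 1.1 and 0.24 in sham and at -1.17, -0.25 and -1.72 in injured kidneys (change -1.84, SE 0.28, limma adjusted p 0.261). Idi1, an isopentenyl diphosphate isomerase, differed by -1.0, -1.44 and -1.76. These were the 2 genes of the list at least 2-fold lower in all 3 pairs.

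**Figure D4:**
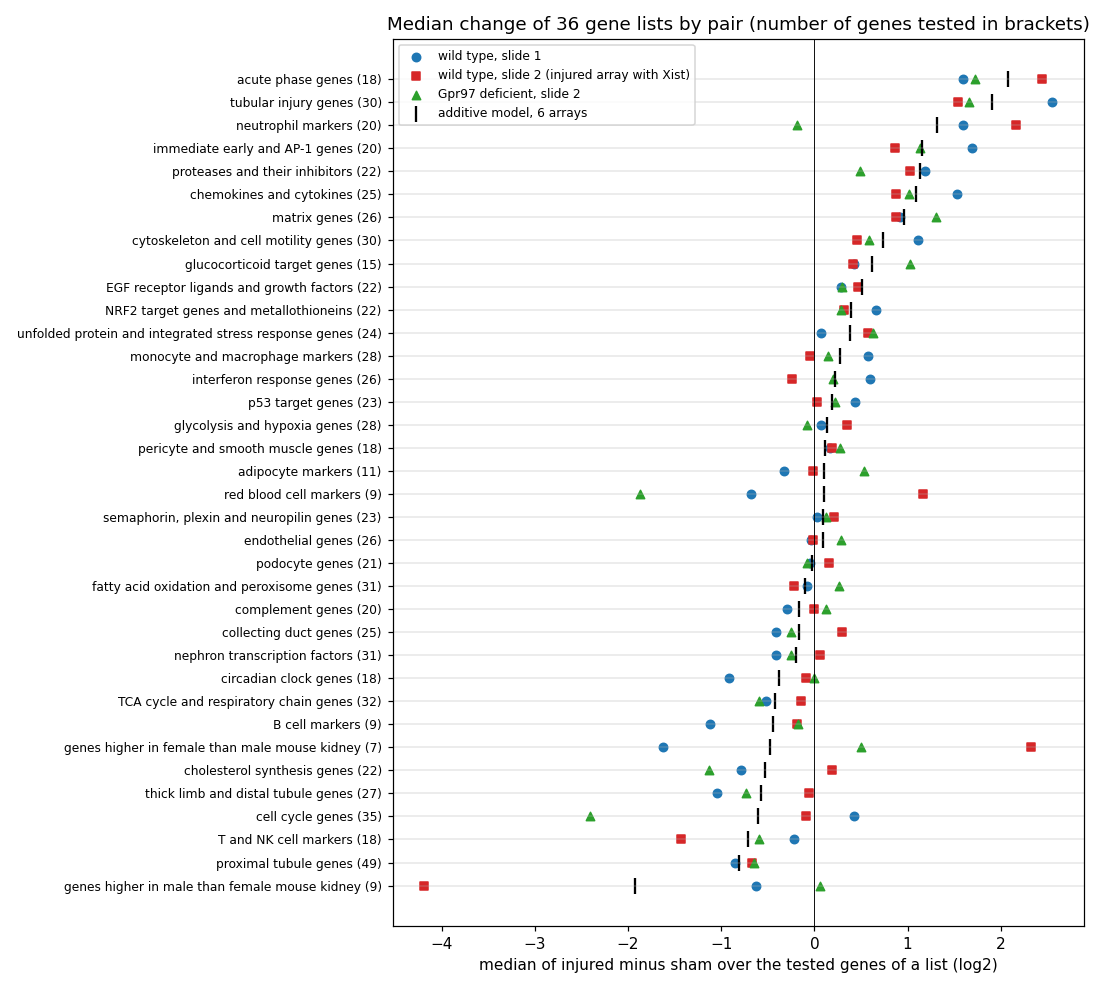
Median injured minus sham difference (log2, horizontal axis) of 36 gene lists in each pair (coloured symbols) and in the model over 6 arrays (black bars), with the number of genes tested in brackets. The tubular injury medians (1.54 to 2.55) and the proximal tubule medians (-0.85 to -0.65) lie on 1 side of 0 in every pair, while cell cycle, neutrophil, red blood cell and sex-dependent lists split between the pairs.

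Markers of leukocytes and blood were examined because such cells enter injured kidney. Neutrophil markers had a median of 1.32, but the pairs gave 1.59, 2.16 and -0.19, and the median was 0.73 without the array with Xist. The summed level of the 20 markers (log2) was 2.50, 1.55 and 5.89 on the sham arrays and 5.78, 5.35 and 6.22 on the injured arrays, so the Gpr97-deficient sham array already lay in the range of the injured arrays. The granule genes Camp and Ltf were highest on that sham array alone. Ltf stood at -4.17, -4.10 and -0.44 in sham and at -5.58, -4.23 and -4.13 in injured kidneys, with changes of -1.75 and -0.27 at its 2 probes. The alarmins S100a8 and S100a9 differed by 1.97, 3.85 and -1.25 and by 1.81, 3.62 and -1.05. Lcn2, Il1r2 and Clec4d, a lectin of myeloid cells, were the 3 markers at least 2-fold higher in all 3 pairs (1.16% of all genes). Clec4d had a change of 3.17 (SE 0.31, limma adjusted p 0.237). Of the 20 markers 5 were well above background on all 6 arrays. How far neutrophils contribute to the acute phase and chemokine values above was not tested.

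Red blood cell markers split in a similar way. Their summed level (log2) was 3.85, 4.24 and 8.32 on the sham arrays and 3.0, 7.29 and 6.29 on the injured arrays, with pair medians of -0.68, 1.16 and -1.87. The median over 6 arrays was 0.10, and -1.12 without the array with Xist. Hba-a1, a globin gene, stood highest on the Gpr97-deficient sham array, at 6.20, followed by the injured array with Xist, at 5.18. The part of blood in the other values was not tested.

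Monocyte and macrophage markers had a median of 0.27, which was below 0 without wild-type sham array 1 and 0.08 without the array with Xist, and their summed level (log2) was 6.88 to 7.74 in sham and 7.53 to 7.65 in injured kidneys. The 3 members at least 2-fold higher in all 3 pairs (1.16% of all genes) were Cd68, Cd14 and Gpnmb. Gpnmb was well above background on 0 sham and 2 injured arrays, and its injured and sham arrays overlapped. Its lowest change over the alternative analyses was 0.98, beside 2.34. Cd68, a lysosomal protein of phagocytes, stood at -2.97, -1.97 and -2.33 in sham and at 0.31, -0.46 and 0.35 in injured kidneys. Cd14, the co-receptor for lipopolysaccharide, had a change of 2.24 (SE 0.32, limma adjusted p 0.261). For both genes every injured array lay above every sham array. The medians of the T and NK cell markers (-0.71) and B cell markers (-0.44) turned to 0.35 and 0.49 with normexp background correction and were -0.90 and -0.74 without the array with Xist, and few of these dim genes (5 of 18 and 4 of 9) were well above background on all 6 arrays. Ighm, the heavy chain of IgM, was the B cell marker at least 2-fold lower in all 3 pairs, by 2.13, 1.51 and 2.95.

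Endothelial genes had a median of 0.09, which was below 0 without either Gpr97-deficient array. Pericyte and smooth muscle genes had a median of 0.11 (0.06 without the array with Xist), and 0 members of either list reached 2-fold in all 3 pairs. Within the second list Tagln, an actin-binding protein of smooth muscle, differed by 1.01, 0.99 and 1.20, and Abcc9, a potassium channel subunit of pericytes, by -1.78, -2.29 and -0.67.

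Cell cycle genes differed between the pairs. The median was 0.42 and -0.09 in the wild-type pairs and -2.41 in the Gpr97-deficient pair, -0.61 over 6 arrays and 0.26 without either Gpr97-deficient array. On the Gpr97-deficient sham array the list lay 1.3 above the mean of the sham arrays, and it lay at -1.08 and -0.28 on the wild-type sham arrays. The same sham array thus stood apart in cell cycle, neutrophil and red blood cell lists. Cenpe, a kinesin of the mitotic spindle, was the 1 member at least 2-fold lower in all 3 pairs, by 1.42, 1.71 and 2.15. Cdkn1a, the cell cycle inhibitor p21 and a p53 target, was higher in all: -1.85, -2.39 and -0.71 in sham and 1.83, 0.16 and 1.67 in injured kidneys (change 2.87, SE 0.50, limma adjusted p 0.263). It was the 1 p53 target of 23 at least 2-fold higher in all 3 pairs, and the list had a median of 0.19, and 0.34 without the array with Xist.

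Stress response lists had small medians above 0. Of 22 NRF2 targets and metallothioneins, 19 were higher, 12 of them in all 3 pairs (18.6% of all genes). Their median was 0.39 (0.55 without the array with Xist). The metallothioneins Mt1 and Mt2, which bind zinc and copper, were the members at least 2-fold higher in all 3 pairs. Mt2 stood at 4.86, 4.78 and 5.75 in sham and at 8.10, 6.83 and 7.92 in injured kidneys. Hmox1, heme oxygenase, differed by 4.89, 0.06 and 2.53, again with little difference in the pair with the array that carries Xist. Ces1d, a carboxylesterase, was the member at least 2-fold lower, by 1.49, 1.16 and 1.44. Of 24 genes of the unfolded protein and integrated stress responses 20 were higher, 15 of them in all 3 pairs (18.6% of all genes). Their median was 0.38. The largest differences were those of Atf3 (2.19, 1.5 and 2.83) and the serine synthesis enzyme Psat1 (1.69, 1.71 and 1.86). Atf3 was already counted among the immediate early genes. Glycolysis and hypoxia genes had a median of 0.13, which was -0.04 with normexp and 0 without the array with Xist, and Hk2, a hexokinase, was the 1 member at least 2-fold higher in all 3 pairs, by 3.64, 1.77 and 1.95. Interferon response genes had a median of 0.22 and 0 members past 2-fold in all 3 pairs, and Rsad2, an antiviral enzyme, was lower by 1.20, 1.0 and 0.78. Complement genes, C3 included, followed no common direction, with 9 higher and 11 lower (median -0.17, above 0 in 3 alternative analyses).

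Among 15 targets of the glucocorticoid receptor 9 were higher and 6 lower over the 6 arrays, with a median of 0.62. At least 2-fold higher in all 3 pairs (1.16% of all genes) were 4, namely Lcn2, Mt2, Cdkn1a and Cebpd. Of these Lcn2, Mt2 and Cdkn1a were already counted in lists above. Another 4 were lower in all 3 pairs (26.4% of all genes), and 0 of them at least 2-fold. Cebpd, a transcription factor of the acute phase, stood at 1.98, 1.43 and 2.05 in sham and at 4.16, 3.81 and 3.71 in injured kidneys. Clock genes had a median of -0.38, which was 0.05 with normexp and -0.68 without the array with Xist. Their member past 2-fold in all 3 pairs on the higher side was the repressor Nfil3 (change 1.49, SE 0.30). Those on the lower side were Dbp and Ciart (-1.72, SE 0.63, and -2.18, SE 0.74). Ciart was well above background on 2 of the 3 injured arrays, and its smallest change over the alternative analyses was -0.47. Of 31 nephron transcription factors 22 were lower, 11 of them in all 3 pairs (26.4% of all genes). Their median was -0.20 (-0.32 without the array with Xist). The 2 that were at least 2-fold higher in all 3 pairs were Sox9 and Elf3, an epithelial factor, at 1.20, 1.35 and 1.21. Klf15, a factor of podocytes and of metabolic genes, lay within 3.51 to 3.53 on the sham arrays and at 1.64, 2.65 and 2.10 on the injured arrays. Semaphorin, plexin and neuropilin genes had a median of 0.09 (0.17 without the array with Xist), with 0 of 23 past 2-fold in all 3 pairs. EGF receptor ligands and growth factors had a median of 0.51.

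The lists of genes that differ between male and female mouse kidney set the array with Xist apart. Genes higher in male kidney had pair medians of -0.63, -4.19 and 0.06, a median of -1.93 over 6 arrays and -0.75 without that array. Cyp2j13, a cytochrome P450, stood at 3.37, 5.43 and 2.50 in sham and at 1.79, -3.86 and 2.49 in injured kidneys, and its 3 probes gave changes from -3.63 to -1.3. Acsm3, an acyl-CoA synthetase, differed by -0.63, -7.94 and 2.08. In the slide 2 wild-type pair injury and the sex difference seen in Xist and the Y-linked genes cannot be told apart. Genes higher in female kidney had pair medians of -1.62, 2.32 and 0.50 and a median of -0.48, and -1.19 without that array.

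Some genes differed in opposite directions between the pairs. At least 2-fold differences in both wild-type pairs and at least 2-fold the other way in the Gpr97-deficient pair were found for 18 genes (0.0917%) higher and 15 genes (0.0764%) lower in wild type. Counted in the same way, 43 genes were lower and 5 higher in both other pairs against the slide 2 wild-type pair, and 16 and 7 set the slide 1 wild-type pair apart. Cdc6, which loads the replicative helicase, differed by 2.68, 2.26 and -1.79, and Chrdl1, an antagonist of bone morphogenetic proteins, by -3.0, -2.59 and 1.71. Cdc6 was well above background on 1 sham and 2 injured arrays. Chrdl1 stood at -1.44, -1.37 and -4.98 in sham and at -4.43, -3.96 and -3.27 in injured kidneys, so the sham arrays accounted for most of the contrast. The test of the difference gave an adjusted p of 1 in limma for both.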

How the data were processed

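Total RNA of 6 mouse kidneys was measured on Agilent 1-colour arrays. The authors deposited scanner intensity values made with Feature Extraction 10.7.1.1 and 10.7.3.1, per the file headers, with flags per spot. They also deposited a table of log2 values, used as an alternative; limma is named in the submitters' processing notes. Probe positions are in mm9, per the file headers.

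Control spots and outlier spots were left out, spots of a probe averaged, and the log2 of the processed intensity scaled by each array's 75th percentile. Each gene was represented by its brightest probe on average, and tested where that probe was well above background on 2 or more arrays. limma 3.58.1 in R 4.3.3 fitted genotype and surgery (3 residual degrees of freedom), and a second model their interaction (2 degrees). The script was tested on simulated data. Number of arrays limits the precision.

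Slides come from the file headers, and pairs from slide and genotype. Alternatives were other scalings, background correction, filters, probe rules, variance priors, a pair block and leaving out arrays. The members and lists were chosen with earlier results of these data known. Genes were named by a rule: the targeted gene, the 25 largest smallest pair differences each way, the 3 largest moderated t each way, the leading members of each list and genes opposite between genotypes. Some it takes are not reported here, and genes chosen after their values were seen are named as such or as members counted in a list.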

Additional observations from a re-analysis of the deposited data

Results flagged for a closer look

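Some results went one way in both wild-type pairs and the other way in the Gpr97-deficient pair. For the genes among them the limma test of the difference was read. The adjusted p was 1 for each gene with such a test, and the test rests on 1 Gpr97-deficient array per surgery. The difference of the injury changes, Gpr97-deficient minus wild type (log2), was -1.38 for Adgrg3, -4.26 (SE 0.48) for Cdc6, 4.51 (SE 0.49) for Chrdl1, -4.01 for Stag3, a cohesin subunit of meiosis, and -3.49 (SE 1.03) for Ifitm6. It was -4.16 for S100a8 and -3.76 for S100a9, whose Gpr97-deficient sham array was the highest of the sham arrays. Stag3 was well above background on 1 sham and 1 injured array only. Smaller or more variable differences were 6.37 for Acsm3, 1.18 for Dcn, 0.58 for Hpx, 0.58 for Col5a2, -0.28 for Actb and -0.53 for Krt7. Genes whose change kept its direction but differed in size were not collected here. Examples named above are Grp, with a difference of 3.24 (SE 1.04), and Abcc9, with 1.37 (SE 0.47).

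Gene lists whose median in the Gpr97-deficient pair lay opposite to both wild-type pairs were endothelial genes (0.29), neutrophil markers (-0.19), adipocyte markers (0.53), fatty acid oxidation and peroxisome genes (0.26), glycolysis and hypoxia genes (-0.08), complement genes (0.12) and genes higher in male kidney (0.06). The differences between genotypes of these lists were not tested.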

How the results depend on the processing

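With limma 0 genes were called, with 2408 at an unadjusted p under 0.05. Quantile normalization called 1 gene and the deposited values 1, Sprr2f in both cases. A variance prior with trend and robust fit called 3 (Sprr2f, Col3a1 and Mmp7). With the pair of the same slide and genotype as a replicate block 1 gene was called, Sprr2f (adjusted p 0.00961), and no other call changed. Normexp background correction, median scaling, both other filters, the mean of the probes and leaving out each array called 0 (0 to 0 over the arrays left out). The test of the difference between genotypes called 0 under every alternative run; leaving out each wild-type array there was chosen after seeing the data. Genes at least 2-fold higher and lower in all 3 pairs numbered 104 and 65 with normexp, of which 95 and 57 were shared with the counts given above. Probes well above background on all 6 arrays gave 156 higher and 99 lower, and a 4-fold limit 55 and 12. Leaving out 1 pair, which counts genes in the other 2, gave 360 to 413 higher and 225 to 543 lower. Over 15 alternative analyses the median of 13 of 37 lists changed sign, as given beside most of them, and that of the tubular injury list stayed within 1.61 to 2.31 and that of the proximal tubule list within -0.95 to -0.65. The folds of dim genes depend on the processing, and 1 Gpr97-deficient array per surgery leaves that genotype without a replicate.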

Other observations

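A family outside the lists, singled out after its values were seen, was that of the vomeronasal type 1 receptors, pheromone receptors of the nose. Of 29 tested genes 6 were at least 2-fold lower and 0 at least 2-fold higher in all 3 pairs, beside 0.774% and 1.16% of all genes, and nothing is read from that count since the family was picked for it. The median change was -0.25 (-0.71, 0.02 and -0.40 by pair), beside -0.16 for 213 olfactory receptors, of which 0 were at least 2-fold lower in all 3 pairs. Of the 29, 9 were well above background on all 6 arrays. These are values only, and their source was not tested.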
